A study of Arabidopsis thaliana with 24 samples.

Results

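DFR, UF3GT, AT4G14090 and AT5MAT encode enzymes of the last steps of anthocyanin synthesis in Arabidopsis thaliana. Each was measured by 1 probe set that the array's annotation assigns to that gene alone, so the 4 genes rest on 4 of the 22746 probe sets on the array, 13513 of which point to a single gene. They were picked by gene name and role, with earlier results of these data known. The plants were wild-type Columbia (Col-0), and RNA was taken from rosette leaves and from roots at the age of 29 days and hybridised to Affymetrix arrays. Plants had been watered with one of 4 liquids on days 0, 4 and 17: nano-titania (TiO2) at 500 mg/L suspended in KCl solution, the KCl solution alone, nano-ceria (CeO2) at 500 mg/L suspended in millipore water, or the water alone. The KCl solution was the control for TiO2 and the water was the control for CeO2, and all 4 liquids were given to plants on potting medium in pots. The labels give the KCl concentration in 2 ways: the treatment protocol has 0.1 M and the description of each array 0.1 mM. Which was used is not settled here. Each of the 8 combinations of liquid and tissue had 3 arrays described as biological replicates, 24 in all. The labels do not say how many plants went into an array or whether leaves and roots of the same number came from the same plants.

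Anthocyanins are the red to purple flavonoid pigments of leaves, stems and flowers, and in leaves they accumulate under strong light, cold, sugar and nutrient shortage. DFR, dihydroflavonol 4-reductase, takes dihydroflavonols out of the branch that leads to flavonols and makes leucoanthocyanidins, which are oxidised to the coloured anthocyanidins. Glycosyltransferases and acyltransferases then attach sugars and organic acids, which stabilise the pigment before it is stored in the vacuole. In seedlings and leaves the late genes are switched on together by a complex of MYB, bHLH and WD40 proteins.

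The tissue labels were checked on marker genes. The mean log2 signal of the 7 leaf markers measured, of 16 listed, was 10.5 to 12.4 on the leaf arrays and 4.20 to 6.86 on the root arrays, and 6 of the 7 did not overlap between tissues, PORB being the exception. The mean of the 5 root markers measured, of 12 listed, was 3.98 to 6.02 on the leaf arrays and 8.31 to 10.8 on the root arrays, and 4 of the 5 did not overlap, LHW being the exception. The lowest value on any array was 2.13 on the log2 scale, array medians lay between 4.96 and 5.15, and correlations between arrays of a group between 0.873 and 0.990. On 6 arrays the lower quartile of all values was above 3.7, a narrower spread of low signals than on the others, and 1 of these 6 was KCl leaf replicate 2. A higher signal in leaves or roots can come from more RNA per cell or from more cells that make it, and these cannot be told apart in whole organs. Signals are compared only within a probe set, because probe sets differ in how brightly they report the same amount of RNA.

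All 4 genes had their highest mean signal of the 8 groups in the leaves of plants watered with KCl solution. In KCl leaves each gene was higher than in every leaf and root array watered with plain water. In TiO2 leaves, from plants that received the particles in the same KCl solution, the means of all 4 genes were lower than in KCl leaves. In roots the means of each gene lay within 0.61 of each other over the 4 treatments.

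**Figure D1:**
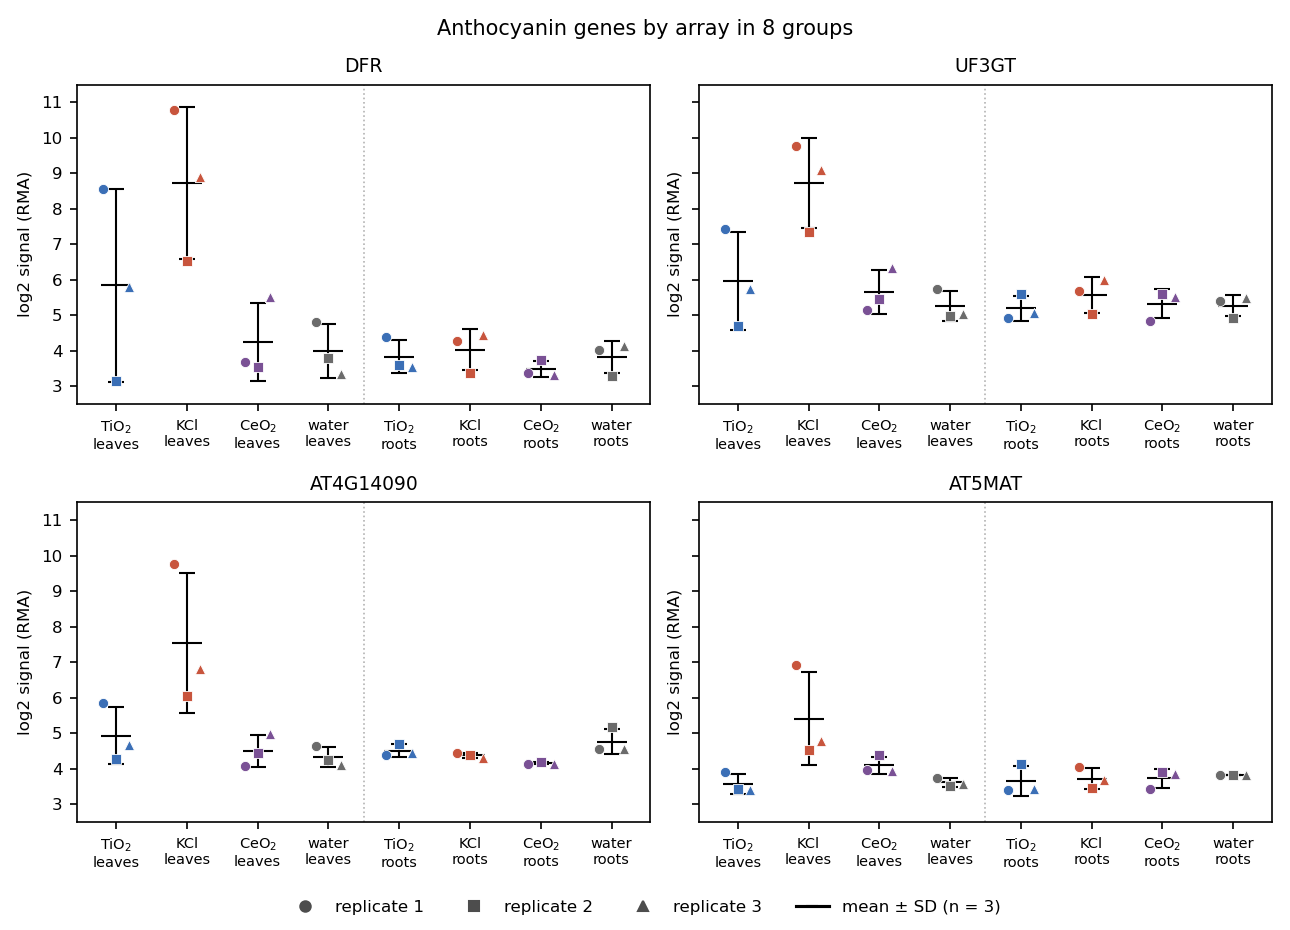
Log2 signal (vertical axis) of DFR, UF3GT, AT4G14090 and AT5MAT on each of the 24 arrays, by treatment and tissue on the horizontal axis. Points are single arrays, and the bars are group means ± SD (n = 3). The 3 KCl leaf arrays reach 10.79 for DFR and 9.78 for UF3GT, and the root arrays of all treatments lie in a narrow band at the low end.

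DFR (AT5G42800; chromosome 5, 17164093 to 17166032 in TAIR10.1) is the enzyme that commits the pathway to anthocyanidins. Its log2 signal was 8.57, 3.16 and 5.80 in TiO2 leaves and 10.79, 6.52 and 8.89 in KCl leaves. It was 3.69, 3.55 and 5.52 in CeO2 leaves and 4.82, 3.80 and 3.36 in water leaves. The 3 TiO2 leaf arrays ran from the lowest leaf value to a value within the range of the KCl arrays. The first of them was the only leaf array outside the KCl group above the lowest KCl array. In roots DFR gave 4.38, 3.60 and 3.54 with TiO2, 4.28, 3.37 and 4.44 with KCl, 3.38, 3.74 and 3.33 with CeO2, and 4.02, 3.30 and 4.15 with water. No root array reached the lowest KCl leaf array, and the 4 root groups overlapped. Means were 5.84 ± 2.70 in TiO2 leaves, 8.73 ± 2.14 in KCl leaves, 4.26 ± 1.1 in CeO2 leaves and 3.99 ± 0.75 in water leaves (SD, n = 3 each). When the 8 groups were ordered by mean, every group of DFR overlapped the next one, and so did every group of UF3GT.

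UF3GT (AT5G54060, also UGT79B1; chromosome 5, 21936746 to 21938396) adds xylose to the glucose that anthocyanins carry at position 3. Its log2 signal was 7.43, 4.70 and 5.75 in TiO2 leaves and 9.78, 7.33 and 9.09 in KCl leaves. It was 5.15, 5.47 and 6.35 in CeO2 leaves and 5.74, 5.0 and 5.04 in water leaves. As for DFR, the first TiO2 leaf array was the only one of the other 9 leaf arrays above the lowest KCl array, here by a small margin. In roots UF3GT gave 4.92, 5.59 and 5.08 with TiO2, 5.69, 5.03 and 6.01 with KCl, 4.85, 5.61 and 5.53 with CeO2, and 5.39, 4.93 and 5.48 with water. The root groups overlapped throughout. Means were 5.96 ± 1.38 in TiO2 leaves, 8.73 ± 1.26 in KCl leaves, 5.65 ± 0.62 in CeO2 leaves and 5.26 ± 0.42 in water leaves (SD, n = 3 each).

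AT4G14090 (also UGT75C1; chromosome 4, 8122188 to 8123835) encodes the anthocyanin 5-O-glucosyltransferase, which adds a glucose at position 5. Its log2 signal was 5.84, 4.29 and 4.68 in TiO2 leaves and 9.77, 6.05 and 6.82 in KCl leaves. It was 4.07, 4.44 and 4.99 in CeO2 leaves and 4.65, 4.25 and 4.11 in water leaves. All 3 KCl leaf arrays were above all other 21 arrays, although the lowest of them exceeded the highest TiO2 leaf array by little, and the first KCl array stood well above the others. In roots AT4G14090 gave 4.38, 4.71 and 4.45 with TiO2, 4.44, 4.39 and 4.30 with KCl, 4.14, 4.19 and 4.14 with CeO2, and 4.55, 5.18 and 4.56 with water. The 3 water root arrays were above all KCl and all CeO2 root arrays. Means were 4.94 ± 0.81 in TiO2 leaves, 7.55 ± 1.96 in KCl leaves, 4.50 ± 0.46 in CeO2 leaves and 4.34 ± 0.28 in water leaves (SD, n = 3 each).

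AT5MAT (AT3G29590; chromosome 3, 11398592 to 11400332) is the malonyltransferase that adds malonate to the glucose at position 5, so it acts on the product of AT4G14090. Its log2 signal was 3.90, 3.42 and 3.40 in TiO2 leaves and 6.91, 4.54 and 4.78 in KCl leaves. It was 3.97, 4.38 and 3.95 in CeO2 leaves and 3.75, 3.52 and 3.58 in water leaves. All 3 KCl leaf arrays were above all other 21 arrays, by a narrow margin over the second CeO2 leaf array. In roots AT5MAT gave 3.41, 4.14 and 3.43 with TiO2, 4.04, 3.45 and 3.69 with KCl, 3.42, 3.92 and 3.86 with CeO2, and 3.82, 3.82 and 3.83 with water. The 4 root means differed by at most 0.16. Means were 3.58 ± 0.28 in TiO2 leaves, 5.41 ± 1.30 in KCl leaves, 4.10 ± 0.24 in CeO2 leaves and 3.62 ± 0.12 in water leaves (SD, n = 3 each).

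The effect of the KCl solution itself was read from KCl against water leaves. DFR was 4.74 ± 1.35 higher in KCl leaves on the log2 scale (SE; 95% interval 1.73 to 7.75). UF3GT was 3.47 ± 0.74 higher (1.82 to 5.12). AT4G14090 was 3.21 ± 0.81 higher (1.41 to 5.0). Each of these intervals left out 0, and so did that of AT5MAT, which was 1.79 ± 0.51 higher (0.66 to 2.92). The fits give a gene the same spread in every group, and the intervals depend on that. The SD in KCl and water leaves was 1.30 and 0.12 for AT5MAT and 1.96 and 0.28 for AT4G14090. No folds are given, since the table has no detection calls and the low signals, in water leaves and in roots, may lie at background, where a difference understates the change. The 3 KCl arrays lay above the 3 water arrays for 4 of 4 genes, against 8.86% of all probe sets. After adjustment over the 22746 probe sets, limma called 0 of the 4, with adjusted p of 0.186 for DFR, 0.101 for UF3GT, 0.145 for AT4G14090 and 0.184 for AT5MAT. It called 0.0396% of all probe sets higher in this comparison. At an unadjusted p under 0.05 limma had 4 of 4 higher, against 6.12% of all probe sets. The median difference of the 4 genes was 3.34 and that of all probe sets 0.04. In a fit to all 24 arrays, with 1 shared estimate of the spread, 3 of the 4 were called, AT5MAT being the exception, against 0.242% of all probe sets called higher in that fit. That fit takes in the root arrays, where group SDs of the 4 genes reached 0.58, against 2.70 in leaves. With only the KCl and water leaf arrays in the fit, the limma adjusted p of the 4 genes was 0.150 to 0.358. Without KCl leaf replicate 3 it was 0.255 to 0.411, and without water leaf replicate 1 it was 0.314 to 0.512. Without KCl leaf replicate 1, the highest array of its group for all 4 genes, the differences were 3.71, 2.95, 2.09 and 1.04 for DFR, UF3GT, AT4G14090 and AT5MAT. Without KCl leaf replicate 2, the lowest for all 4 and an array with a narrow spread of values, they were 5.85, 4.17, 3.95 and 2.23.

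**Figure D2:**
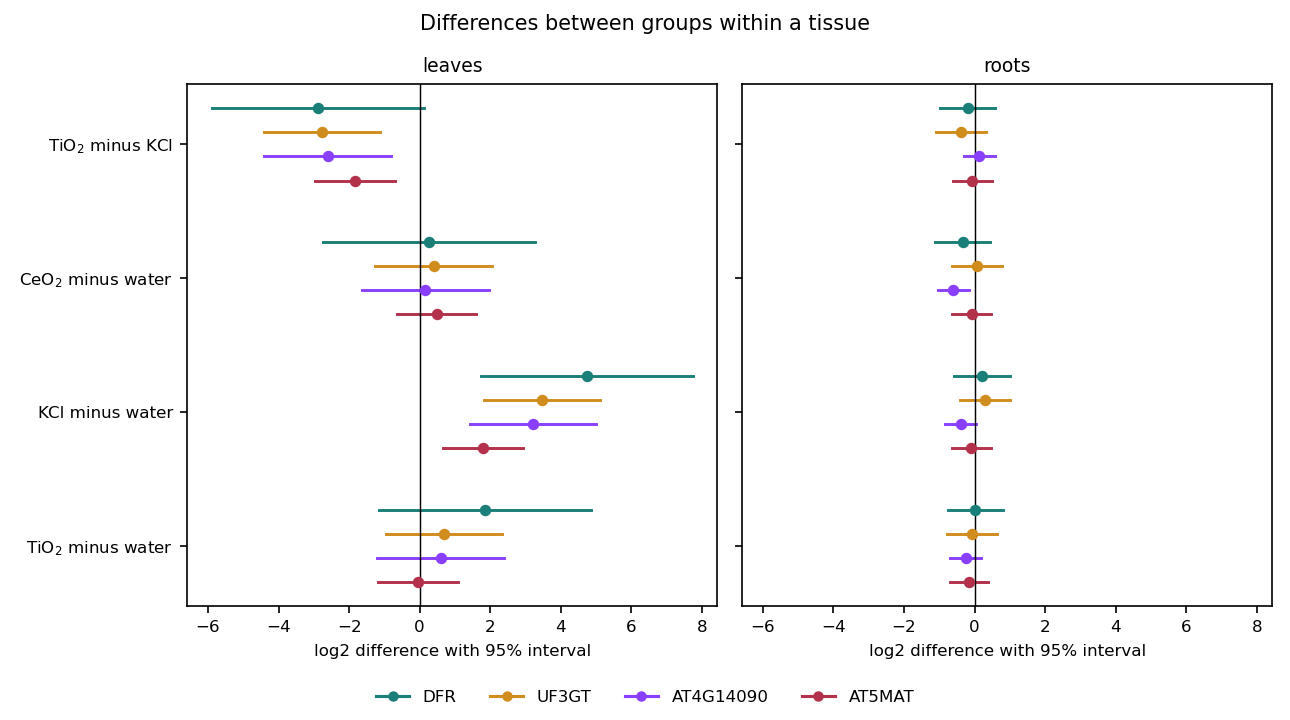
Differences in log2 signal of the 4 genes in the treatment comparisons, by tissue. Points are the fitted differences, with 95% intervals as bars, and the vertical line marks no difference. In leaves the KCl against water points lie at 1.79 to 4.74 and the TiO2 against KCl points at -2.89 to -1.83, while all points in roots lie between -0.61 and 0.31.

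TiO2 leaves were compared with KCl leaves, the control for the titania suspension. UF3GT was 2.77 ± 0.74 lower in TiO2 leaves (SE; difference -2.77, 95% interval -4.42 to -1.12; adjusted p = 0.167). AT4G14090 was 2.61 ± 0.81 lower (difference -2.61, -4.40 to -0.82; adjusted p = 0.205). AT5MAT was 1.83 ± 0.51 lower (difference -1.83, -2.96 to -0.71; adjusted p = 0.178). The interval for DFR reached past 0: it was 2.89 ± 1.35 lower (difference -2.89, -5.90 to 0.12; adjusted p = 0.339). The arrays of both groups did not overlap for AT4G14090 and AT5MAT, which makes 2 of 4 lower and apart, against 14% of all probe sets. limma called 0 of the 4 at an adjusted p under 0.05, against 0.00879% of all probe sets called lower, and 3 of the 4 were lower at an unadjusted p under 0.05, against 7.05%. The median difference of the 4 genes was -2.69 and that of all probe sets -0.07. Leaving out single arrays moved DFR between -4.25, without TiO2 leaf replicate 1, and -1.55, without TiO2 leaf replicate 2. Without KCl leaf replicate 1, AT4G14090 was at -1.50 and AT5MAT at -1.08. This comparison and that of KCl against water use the same 3 KCl leaf arrays, so the values of the 4 genes in them are not independent of each other.

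TiO2 leaves were also set against water leaves, a pair that differs in both the particles and the KCl. DFR was 1.85 ± 1.35 higher in TiO2 leaves (95% interval -1.16 to 4.86), with a limma adjusted p of 0.773. The differences of the 4 genes ran from -0.04 to 1.85, and the arrays of both groups overlapped for all 4, so 0 of 4 were apart, against 21% of all probe sets. limma called 0 of the 4, against 0% of all probe sets, and had 0 of the 4 at an unadjusted p under 0.05 in either direction, against 7.91%. The DFR difference was 0.49 without TiO2 leaf replicate 1 and 3.19 without TiO2 leaf replicate 2.

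In CeO2 against water leaves the 4 genes were between 0.16 and 0.48 higher. limma called 0 of the 4 (adjusted p = 0.9995 for each), as it called 0% of all probe sets, and 0 of the 4 had an unadjusted p under 0.05 in either direction, against 2.21% of all probe sets. The CeO2 and water arrays did not overlap for 1 gene, AT5MAT, whose CeO2 arrays were all higher. That pattern was seen for 2.89% of all probe sets. The effects of the particles, each over its own control, were then set against each other in leaves. The TiO2 effect was below the CeO2 effect by 3.17 ± 1.05 for UF3GT (difference -3.17; adjusted p = 0.345), and the difference was -2.77 ± 1.14 for AT4G14090 (adjusted p = 0.385). It was -2.32 ± 0.72 for AT5MAT (adjusted p = 0.341) and -3.15 ± 1.91 for DFR (adjusted p = 0.496). limma called 0 of the 4, with 0.0176% of all probe sets called in either direction, and 3 of the 4 were lower at an unadjusted p under 0.05, against 5.55%. Both controls enter this difference, the KCl leaf arrays included, which formed the highest group for all 4 genes.

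In roots AT4G14090 was the only one of the 4 genes whose groups lay apart in a treatment comparison, with its highest values in water roots. TiO2 minus KCl roots ran from -0.38 to 0.14 over the 4 genes, with -0.38 ± 0.32 for UF3GT (adjusted p = 0.710). limma called 0 of the 4, against 0.347% of all probe sets in either direction, had 0 of 4 at an unadjusted p under 0.05, against 12.5%, and 0 of 4 were apart, against 15.3%. CeO2 minus water roots ran from -0.61 to 0.06, and limma called 0 of 4, against 0.0176% of all probe sets. The low end was AT4G14090, at -0.61 ± 0.20 (adjusted p = 0.519), with all CeO2 arrays below all water arrays. It was 1 of 4 genes lower and apart, against 7.29% of all probe sets, and 1 of 4 lower at an unadjusted p under 0.05, against 2.87%. KCl minus water roots ran from -0.39 to 0.31, and AT4G14090 was again lower and apart, at -0.39 ± 0.20 (adjusted p = 0.510), against 7.7% of all probe sets. limma called 0 of 4 there, against 0.119%, and had 0 of 4 at an unadjusted p under 0.05, against 11.6%. Both of these comparisons use the same 3 water root arrays, of which replicate 2 was the highest. For TiO2 minus water roots AT4G14090 was at -0.25 ± 0.20, and the 4 genes ran from -0.25 to 0.02, with 0 of 4 called by limma, against 0.0044% of all probe sets, and 0 of 4 at an unadjusted p under 0.05, against 2.35%. The TiO2 effect over the CeO2 effect in roots was 0.75 ± 0.28 for AT4G14090 (adjusted p = 0.30). It was 1 of 4 higher at an unadjusted p under 0.05, against 5.51% of all probe sets, and limma called 0 of 4, against 0.572%. This AT4G14090 difference contains CeO2 minus water roots, at -0.61, with the same 3 water root arrays. The 4 group means of DFR spanned 4.74 from lowest to highest in leaves and 0.55 in roots. Those of UF3GT spanned 3.47 in leaves and 0.38 in roots, those of AT4G14090 3.21 in leaves and 0.61 in roots, and those of AT5MAT 1.83 in leaves and 0.16 in roots.

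Leaves against roots of the same treatment gave the one comparison in which the 4 genes passed the test. In plants watered with KCl solution all 4 rose in leaves over roots, against 11.4% of all probe sets called higher. DFR was 4.70 ± 1.03 higher (adjusted p = 0.00232) and UF3GT 3.16 ± 0.59 higher (adjusted p = 0.000631). AT4G14090 was 3.17 ± 0.61 higher (adjusted p = 0.000773) and AT5MAT 1.68 ± 0.41 higher (adjusted p = 0.00527). The leaf arrays lay above the root arrays for 4 of 4, against 15.2% of all probe sets. These fits used all 24 arrays and gave a gene the same spread in leaf and root groups. The group SDs of the 4 genes reached 2.70 in leaves and 0.58 in roots. With only the 6 KCl arrays in the fit, the limma adjusted p was 0.0234 for DFR, 0.0186 for UF3GT, 0.0578 for AT4G14090 and 0.128 for AT5MAT, so 2 of the 4 remained called, against 9.24% of all probe sets called higher in that fit. Without KCl leaf replicate 1 all 4 stayed under 0.05, against 9.71% of all probe sets called higher, at differences of 3.67, 2.64, 2.06 and 0.93 for DFR, UF3GT, AT4G14090 and AT5MAT. Without KCl leaf replicate 2 the same 4 differences were 5.81, 3.86, 3.92 and 2.12.

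The other treatments showed no called difference between organs. In TiO2 plants the leaf minus root differences ran from -0.09 to 2.0, with DFR at 2.0 ± 1.03 (adjusted p = 0.203) and UF3GT at 0.76 ± 0.59 (adjusted p = 0.432), and limma called 0 of 4, against 20.4% of all probe sets in either direction, with 0 of 4 at an unadjusted p under 0.05, against 30.6%. Without TiO2 leaf replicate 2, DFR was at 3.34 and was called, 1 of 4 against 8.96% of all probe sets called higher. Without TiO2 leaf replicate 1, DFR was at 0.64 (limma adjusted p = 0.713), so this difference hung on single leaf arrays in both directions. In CeO2 plants the differences ran from 0.32 to 0.77, with 0 of 4 called, against 17.7%, and 0 of 4 at an unadjusted p under 0.05, against 28.5%. The leaf arrays of AT5MAT were all above the root arrays there, 1 of 4 genes, against 13.3% of all probe sets. In water plants the differences ran from -0.43 to 0.17, with 0 of 4 called, against 19.9%, and 0 of 4 at an unadjusted p under 0.05, against 30.9%. AT5MAT was apart in the other direction there, with all leaf arrays below all root arrays, 1 of 4 genes, against 22.8%. In plants that never received KCl the 4 genes had leaf and root means within 0.77 of each other.

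Whether the treatment effects differed between organs was tested directly. The KCl effect, KCl minus water, was larger in leaves than in roots by 4.53 ± 1.46 for DFR (adjusted p = 0.322) and by 3.17 ± 0.84 for UF3GT (adjusted p = 0.187). It was larger by 3.60 ± 0.86 for AT4G14090 (adjusted p = 0.120) and by 1.89 ± 0.58 for AT5MAT (adjusted p = 0.290). limma called 0 of the 4, against 0.0923% of all probe sets, and had 4 of 4 higher at an unadjusted p under 0.05, against 3.98%. The TiO2 effect, TiO2 minus KCl, differed by -2.70 ± 1.46 between leaves and roots for DFR (adjusted p = 0.531) and by -2.40 ± 0.84 for UF3GT (adjusted p = 0.254). The difference was -2.75 ± 0.86 for AT4G14090 (adjusted p = 0.197) and -1.77 ± 0.58 for AT5MAT (adjusted p = 0.224), so 0 of 4 were called, against 0.207% of all probe sets, and 3 of 4 were lower at an unadjusted p under 0.05, against 4.58%. The CeO2 effect differed by 0.33 to 0.77 over the 4 genes, with 0 of 4 called, against 0.0044%, and 0 of 4 at an unadjusted p under 0.05, against 4.91%. These tests of the difference are the ones that bear on organ specificity, and none of them passed the adjusted threshold.

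In leaves the 4 genes tended to be high or low on the same arrays of a treatment. Replicate 1 had the highest value of all 4 genes in TiO2 leaves, in KCl leaves and in water leaves, and in CeO2 leaves replicate 3 was highest for 3 of the 4. Replicate 2 was lowest for all 4 in KCl leaves. With each array expressed as its deviation from its group mean, Pearson's r between pairs of the 4 genes was 0.60 to 0.98 over the 12 leaf arrays, with a median of 0.816 over the 6 pairs. In roots the same 6 pairs ran from -0.59 to 0.74 over 12 arrays, with a median of 0.243. The points of such a correlation share the array, its RNA extract and its normalisation, and the values are given as a description.

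**Figure D3:**
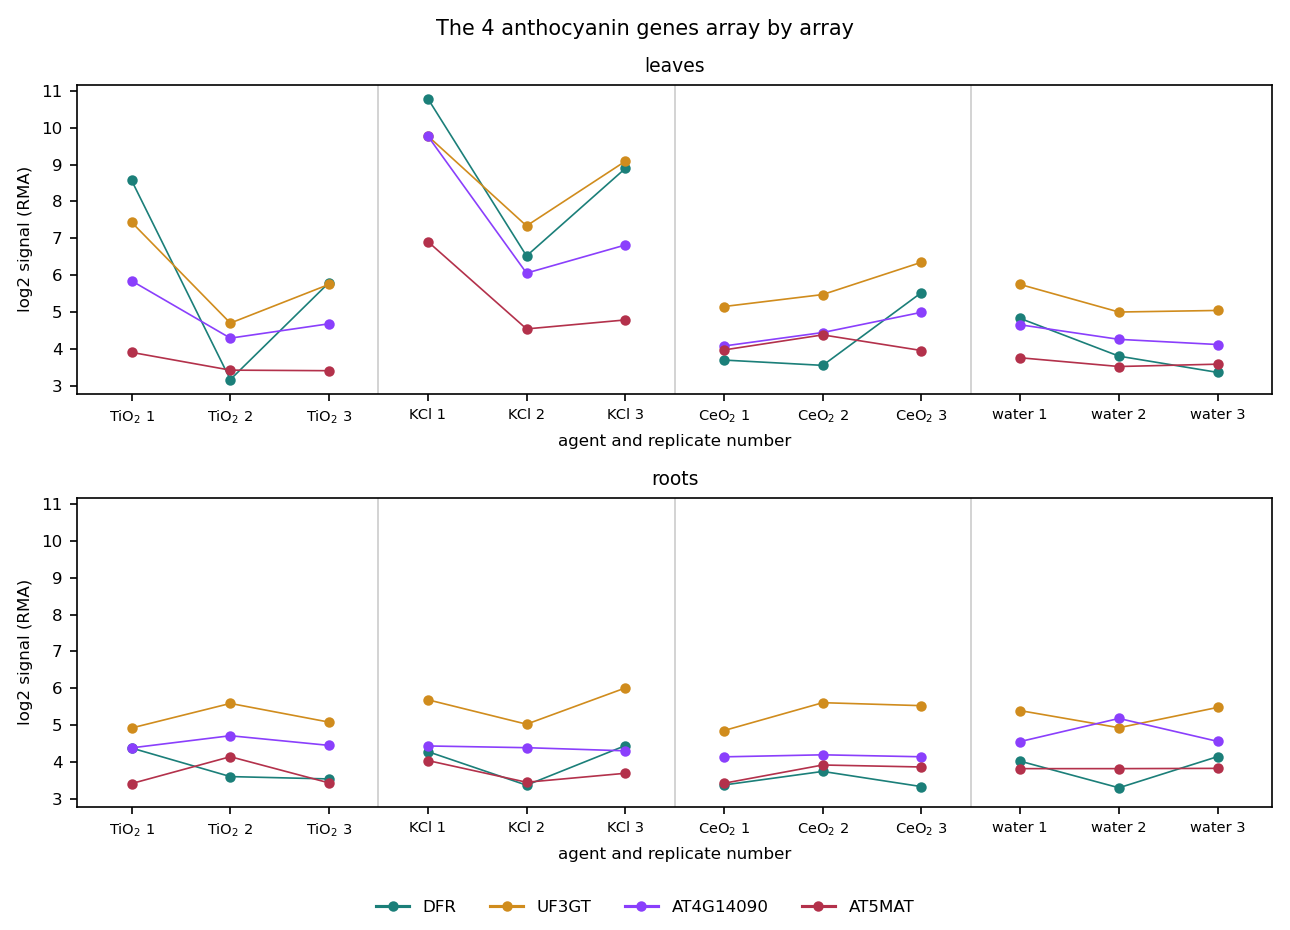
Log2 signal (vertical axis) of the 4 genes on the 3 arrays of each treatment (horizontal axis), with leaves in the upper panel and roots in the lower one; lines join the values of 1 gene within a group as a guide to the eye, and replicates have no order. In leaves the 4 genes are highest on the same array in the TiO2, KCl and water groups, while in roots the pairwise r of their deviations from group means ran from -0.59 to 0.74.

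Of the other genes of flavonoid synthesis and its control listed for this comparison, 6 of 63 had a probe set that pointed to them alone. None of the 17 listed activators and none of the 14 listed repressors was among them, so the regulators of the pathway were not analysed here. UGT78D2, which attaches the glucose at position 3 of anthocyanidins and flavonols, stands between DFR and UF3GT in the pathway. Its mean log2 signal was 8.77 in TiO2 leaves, 9.13 in KCl leaves, 7.85 in CeO2 leaves and 7.30 in water leaves. It was 1.83 ± 0.45 higher in KCl than in water leaves (limma adjusted p = 0.132), with no overlap, against 8.86% of all probe sets higher and apart. It was 1.47 ± 0.45 higher in TiO2 than in water leaves (limma adjusted p = 0.604), also with no overlap, against 21% of all probe sets apart in either direction. Its TiO2 and KCl leaf means differed by less than 0.45, the SE of that difference. In roots it was 1.30 ± 0.37 lower in KCl than in water (difference -1.30; adjusted p = 0.177), at means of 5.84 and 7.14.

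CHIL, a chalcone isomerase-like protein that aids the first steps of flavonoid synthesis, had means of 7.48 in TiO2 leaves, 6.84 in KCl leaves, 5.92 in CeO2 leaves and 5.69 in water leaves. Its highest mean was in TiO2 leaves, where it was 1.79 ± 0.63 above water leaves (limma adjusted p = 0.604). UGT78D2 rose in leaves over roots in TiO2 plants (2.18 ± 0.42, adjusted p = 0.000858) and in KCl plants (3.29 ± 0.42, adjusted p = 1.40e-05). CHIL did so as well in TiO2 plants (3.03 ± 0.55, adjusted p = 0.000482) and in KCl plants (2.02 ± 0.55, adjusted p = 0.0114). That made 2 of 6 called higher in each, against 11.3% of all probe sets in TiO2 plants and 11.4% in KCl plants. AT1G06000 (UGT89C1), a flavonol rhamnosyltransferase, ran differently, with 8.06 in TiO2 leaves, 6.33 in KCl leaves, 7.52 in CeO2 leaves and 7.22 in water leaves, so KCl leaves were its lowest leaf group. It was 1.73 ± 0.59 higher in TiO2 than in KCl leaves (adjusted p = 0.236), and in water plants it fell in leaves relative to roots by 2.39 ± 0.65 (adjusted p = 0.0134). In water plants it was the 1 of 6 called lower, against 10% of all probe sets. UGT78D1, another flavonol rhamnosyltransferase, had 6.87 in TiO2 leaves, 5.48 in KCl leaves, 5.56 in CeO2 leaves and 5.39 in water leaves. The group means of UGT78D3, a flavonol arabinosyltransferase, stayed between 3.57 and 3.86. Those of BAN, the anthocyanidin reductase of the seed coat tannin branch, stayed between 3.69 and 4.10. UGT78D2, CHIL and UGT78D1 had all TiO2 leaf arrays above all water leaf arrays, 3 of 6, with 0 of 6 apart and lower. That compares with 21% of all probe sets apart in either direction. UGT78D2 alone had all KCl leaf arrays above all water leaf arrays, 1 of 6, against 8.86% of all probe sets. limma called 0 of these 6 in each treatment comparison in either tissue, where it called 0% to 0.572% of all probe sets. At an unadjusted p under 0.05 it had 1 of 6 higher in KCl against water leaves, against 6.12% of all probe sets, 1 of 6 higher in TiO2 against KCl leaves, against 8.44%, and 2 of 6 higher in TiO2 against water leaves, against 4.32%. In roots it had 3 of 6 lower in KCl against water, against 5.41%, and 2 of 6 lower in CeO2 against water, against 2.87%. For the TiO2 over the CeO2 effect in roots it had 2 of 6 higher, against 5.51%. AT1G06000 and UGT78D1 were among the genes counted in each of these root comparisons, all of which use the same water root arrays. AT1G06000 had means of 7.95 in KCl roots and 9.60 in water roots, and UGT78D1 4.57 in KCl roots and 6.28 in water roots. For KCl against water leaves the 6 genes had a median difference of 0.16, with a range of -0.89 to 1.83. For TiO2 against KCl leaves their median was 0.25, where the 4 anthocyanin genes were at -2.69.

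**Figure D4:**
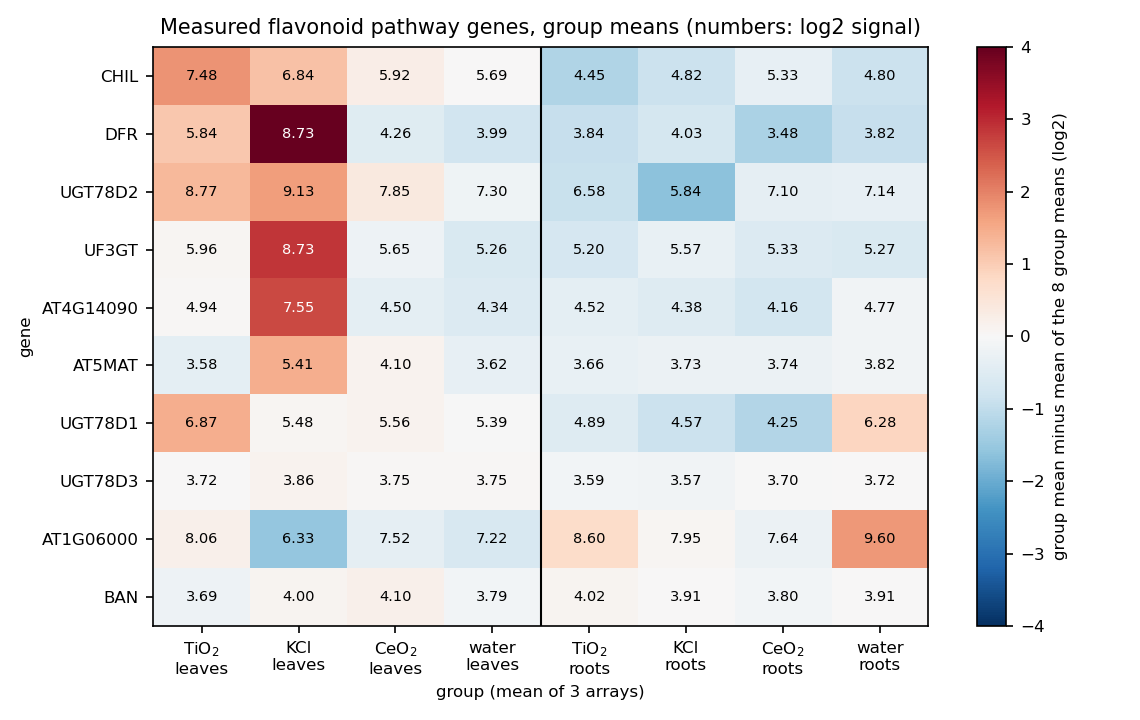
Mean log2 signal of the 4 anthocyanin genes and the 6 other measured flavonoid genes (down the page) in the 8 groups (across, n = 3 arrays each); colour gives the deviation from the gene's own mean over the 8 groups and the printed value is the mean. The highest mean is in KCl leaves for DFR, UF3GT, AT4G14090 and AT5MAT, and also for UGT78D2 and UGT78D3. CHIL and UGT78D1 have theirs in TiO2 leaves.

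The 3 reference genes often used to scale plant expression data were looked at on the same arrays. In TiO2 against KCl leaves PEX4, which encodes a ubiquitin-conjugating enzyme, differed by -1.07 ± 0.31 (limma adjusted p = 0.188), AT4G34270 by 0.42 and AT2G28390 by 0.61. In KCl against water leaves the same 3 differed by 0.34, 0.22 and -0.45. Their part in the differences of the anthocyanin genes was not tested, and no value was scaled to them.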

How the data were processed

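The deposited table of the 24 arrays holds log2 signals made with RMA, per the submitters' processing notes; the version, and whether all arrays were processed together, are not given in the sources used here. RMA corrects background, equalises the distributions of arrays and summarises the probes of a set, and it shrinks low signals together, so differences between dim groups are understated. The table gave no detection calls, and the number of arrays limits the precision. Probe sets were named from the platform's annotation (14016 listed, 503 of them with several genes; the other 8730 are unnamed here), with symbols and coordinates updated from RefSeq's TAIR10.1 gene table. No value was filtered or rescaled. limma 3.58.1 (R 4.3.3) was fitted for treatment comparisons to the 12 arrays of a tissue, and for comparisons between tissues to all 24 arrays, with p-values adjusted by Benjamini-Hochberg over the 22746 probe sets and 0.05 as threshold. There were 17 comparisons. The p-values set a difference against the spread between arrays within groups, shared over the groups in the fit. That spread may be partly technical. The genes and lists were chosen with earlier results of these data known. The genes named were the 4 members, the other measured genes of the flavonoid lists, the reference genes and, per tissue, the 5 genes with the closest pattern; differences of the 4 members no larger than their own SE are given only as ranges. Alternatives covered normalization, the arrays in the fit, a replicate block, a level filter, array weights and leaving out arrays. Same-numbered KCl and water root arrays deviated together (r = 0.18 to 0.37), as did same-numbered CeO2 leaf and root arrays (r = 0.26 to 0.33). In each other comparison at least 1 same-numbered pair had an r of 0.1 or less. Some arrays of different number also deviated together, as TiO2 replicate 1 and KCl replicate 2 did in roots (r = 0.53). These values therefore do not establish a pairing. Scripts were tested on simulated data. Figures were drawn with matplotlib 3.10.9.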

Additional observations from a re-analysis of the deposited data

How the results depend on the processing

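Of the differences of the 4 genes, the 32 larger than their own SE kept their direction under every alternative run, and 22 of the 36 no larger than it changed sign under at least 1. Counts of the 4 genes called by limma are given beside the share of all probe sets called in the same fit, in either direction. Array weights gave 3 in place of 0 for TiO2 against KCl leaves (19.8%), 1 in place of 0 for KCl against water leaves (1.64%) and 1 in place of 0 for the TiO2 over the CeO2 effect in leaves (5.37%). In roots they gave 1 in place of 0 for TiO2 against KCl (32.1%), CeO2 against water (20.9%) and TiO2 against water (21.4%), and 2 in place of 0 for the TiO2 over the CeO2 effect (32%); 1 of 4 is close to the shares of all probe sets there. For leaves against roots they gave 3 in place of 0 for the TiO2 effect (18.2%) and 4 in place of 0 for the KCl effect (6.13%). The estimation of the weights stopped before it converged, and they ran from 0.287 to 12.9. For KCl against water leaves all 24 arrays in the fit gave 3 (0.44%), and keeping only probe sets above the median level gave 1 (0.765%), in place of 0. For leaves against roots in KCl plants only the groups compared gave 2 (17.8%) and the level filter, which only UF3GT passed, gave 1 (36.4%), in place of 4. Leaving out 1 array at a time gave 0 to 1 for leaves against roots in TiO2 plants, with 1 without TiO2 leaf replicate 2 (14.8%), and 0 to 2 for the KCl effect in leaves against roots, with 2 without KCl leaf replicate 2 (0.185%). The replicate block changed no call: with it, the adjusted p of the 4 genes was 0.129 to 0.242 for TiO2 against KCl leaves and 0.0557 to 0.147 for KCl against water leaves. The count of all probe sets called for KCl against water leaves, 43, became 122 with the block, 100 with all 24 arrays, 8 with only the groups compared, 87 with the level filter, 18 with repeated quantile normalization, 372 with array weights and 111 without the 6 arrays of narrow spread. It was 3 without KCl leaf replicate 3, 4 without water leaf replicate 1, 11 without water leaf replicate 2 and 88 without water leaf replicate 3. Scaling moved the split of all calls into higher and lower: centring arrays on their medians gave 1 and 2 for TiO2 against KCl leaves in place of 3 and 2, and 71 and 32 for TiO2 against KCl roots in place of 46 and 33. Repeated quantile normalization gave 6 and 12 for KCl against water leaves in place of 9 and 34, and 25 and 12 for KCl against water roots in place of 11 and 16. Centring also put the median difference of all probe sets at -0.20 for the TiO2 over the CeO2 effect in leaves, in place of -0.09, and at 0.15 for the KCl effect in leaves against roots, in place of 0.01. With 3 arrays a group and single arrays that move DFR by over 1 on the log2 scale, the sizes of the leaf differences are loosely set.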

Other observations

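The genes whose pattern over the 12 leaf arrays came closest to the mean of the 4 anthocyanin genes, of 13509 ranked, were BETA-VPE (Pearson's r 0.932, Spearman's rho 0.713), SPT (0.928, 0.818), AT5G58540 (0.915, 0.741), AT5G01940 (0.912, 0.720) and AT2G29370 (0.909, 0.594). BETA-VPE, a vacuolar processing protease, had mean log2 signals of 6.49 in TiO2 leaves, 8.25 in KCl leaves, 6.27 in CeO2 leaves and 6.29 in water leaves. SPT encodes the bHLH transcription factor SPATULA. Over the same 12 arrays UGT78D2 had a Pearson's r of 0.695 and a Spearman's rho of 0.601, and CHIL 0.367 and 0.322. Over the 12 root arrays the closest were AT5G18220 (0.945, 0.895), AT3G53840 (0.911, 0.881), AT5G09700 (0.906, 0.909), AT4G24950 (0.903, 0.909) and AT1G65080 (0.901, 0.853). The root group means of these 5 genes were low, from 3.15 to 4.24, below the array medians of 4.96 to 5.15. Whether the narrower spread of low signals on some arrays shaped this root pattern was not tested. In leaves the KCl group has the highest mean of all 4 genes and lies apart from the other leaf groups for AT4G14090 and AT5MAT, and in both tissues the points share array and normalization, so these values are a description.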
